A study of Mus musculus with 8 samples.

Results

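Macrophages that take up a repair or housekeeping programme in a tissue carry a recognisable set of transcripts, and 10 of these genes (*Chil3*, *Retnla*, *Arg1*, *Mrc1*, *Cd163*, *Lyve1*, *Timd4*, *Folr2*, *F13a1* and *Cbr2*) were followed here in cells recovered from mouse hearts and from culture dishes. They were picked by symbol from a table of 54532 genes, with values of these libraries already known, above all the absence of *Chil3* and *Retnla* from the cultures. All 10 symbols were found. The heart-against-culture values are therefore given as a description, while the changes from week 1 to week 2 within the heart and within culture, and the difference between these changes, were tested.

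The cells were cardiac fibroblasts grown out of the infarct area of C57BL/6 mouse hearts 6 days after myocardial infarction (MICFs). In all 4 groups they carried the same Tet-inducible lentiviruses for Mef2c, Gata4 and Tbx5 on one transcript (MGT), Myocd, Sall4 and eGFP, a combination labelled MGTMyoS overexpression that drives fibroblasts towards cardiomyocyte-like cells. For the *in vivo* groups, the cells were injected into the left ventricle of 8-week-old male C57BL/6 mice right after coronary ligation, and the hosts received doxycycline in sweetened water and daily tacrolimus, methylprednisolone (a glucocorticoid) and mycophenolate mofetil. For the *in vitro* groups, the cells stayed in medium with doxycycline, serum, the TGF-β receptor inhibitor SB431542 and the JAK inhibitor baricitinib. After 1 week (day 7) or 2 weeks (day 14), eGFP+ cells were sorted from the hearts and from the cultures and sequenced as bulk RNA, with 2 libraries in each of the groups heart week 1, heart week 2, culture week 1 and culture week 2. The sort selected on eGFP and not on a macrophage protein. The hosts kept their own immune cells under the drug treatment, and removal of CD45+ cells from MICFs is described as a separate step that is not stated for these libraries. By the paper's count, MICFs isolated 6 days after infarction were mostly fibroblasts, with macrophages as the next largest part. The labels do not say which animals or wells the libraries came from, so the p-values measure only the spread between these libraries.

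Alternative activation is the response of macrophages to the type 2 cytokines IL-4 and IL-13. These bind receptors that contain IL-4Rα, JAK kinases phosphorylate STAT6, and STAT6 together with C/EBPβ, KLF4 and PPARγ turns on genes such as *Retnla*, *Chil3*, *Arg1* and *Mrc1* in the mouse. Resident macrophages of the heart descend in large part from embryonic precursors and are known by Lyve1, Timd4, Folr2 and Cd163, whereas macrophages that arrive after an infarct come from Ccr2+ blood monocytes.

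Levels are FPKM (fragments per kilobase of gene and 1000000 fragments), a unit in which genes of different length can be compared. Each library held between 12304242 and 14546904 fragments on genes, so that 1 fragment on a gene of 1 kb corresponded to an FPKM of 0.0650 to 0.0905. Macrophage transcripts were plentiful in every library. All 20 genes of a list of general macrophage markers were at an FPKM of 1 or more throughout, led by *Lyz2* (lysozyme), *C1qb* and *C1qa* (complement) and *Ctss* (a lysosomal protease), and their summed FPKM was 3421 to 4041 in heart week 1, 2379 to 2887 in heart week 2, 5953 to 6766 in culture week 1 and 5635 to 6911 in culture week 2. The summed FPKM of 10 fibroblast genes was 10193 to 13277 in the heart and 2134 to 3255 in culture. In such bulk samples, fewer macrophages and less RNA of a gene per macrophage cannot be told apart.

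The 10 genes did not share a single pattern, as the plot of the 10 genes by library shows. *Chil3* and *Arg1* were high in the heart in both weeks and *Retnla* and *Timd4* in the heart at week 2 alone, *Lyve1* and *Cd163* were highest in the heart at week 2 with clear levels in culture, and *Mrc1*, *Folr2*, *F13a1* and *Cbr2* had their highest level in culture at week 2.

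**Figure D1:**
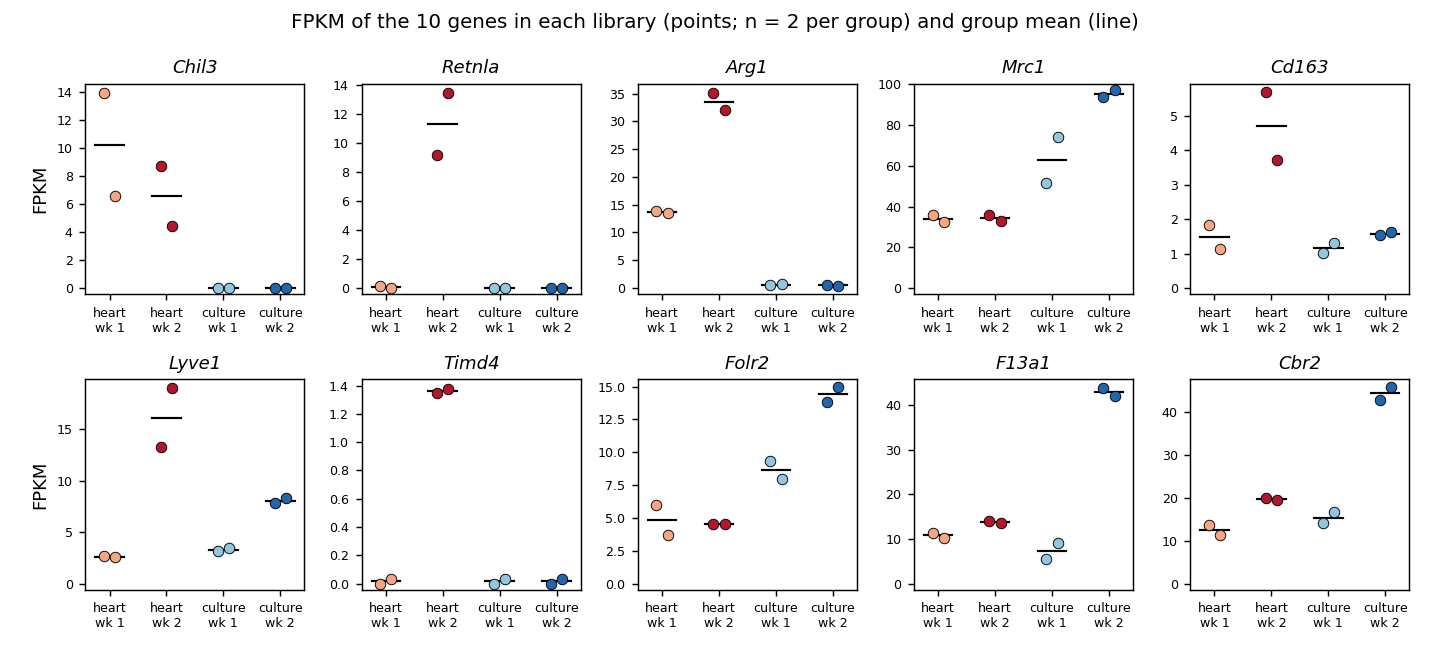
FPKM (vertical axis, linear, a separate scale per gene) of the 10 genes in the 8 libraries, with 1 point per library, 2 libraries per group and a line at the group mean. *Chil3* and *Retnla* lie at 0 in all 4 culture libraries, *Retnla* and *Timd4* leave the baseline in the heart at week 2, and *Mrc1*, *Folr2*, *F13a1* and *Cbr2* peak in culture at week 2.

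*Retnla* encodes RELMα, also called FIZZ1, a small secreted protein of alternatively activated macrophages that is used as their marker in mice. It lies on chromosome 16 (48842551 to 48844461, plus strand, mm10). The FPKM in heart week 1 was 0.143 and 0, or 1 fragment in the pair of libraries, and in heart week 2 it was 9.17 and 13.5, or 62 and 89 fragments. All 4 culture libraries held 0 fragments of it. The heart week 2 libraries thus stood apart from the other 6, with no overlap. From week 1 to week 2 in the heart, the fitted difference was 6.17 ± 0.53 on the log2(FPKM + 0.1) scale (SE). *Retnla* entered the fit of 15708 genes only because its heart week 2 libraries passed the filter on low values, so it had to differ there, and the difference is a description with no test. Its size depends on the constant added before the logarithm and ran from 3.50 to 8.15 over the alternatives. The fragments themselves gave a week 2 to week 1 ratio of 167, with an exact 95% interval of 29.6 to 6649 that covers counting error only. Because of the same filter, this ratio and its interval are a description with no test too. At week 2 the mean level in the heart was at least 31.0-fold higher than in culture, where 0 fragments allow up to 3 per library.

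*Chil3* encodes Ym1, a chitinase-like protein that macrophages secrete and that, with RELMα, is among the most used marks of the IL-4 response in mice. The gene is on chromosome 3 (106147554 to 106167564, minus strand). Heart week 1 held 265 and 139 fragments (FPKM 13.9 and 6.54), heart week 2 held 160 and 80 (FPKM 8.69 and 4.44), and the cultures held 0 in each of the 4 libraries. The heart libraries of the 2 weeks overlapped, with group means of 10.2 ± 5.18 and 6.56 ± 3.003 FPKM (SD, n = 2). The difference of -0.61 between the weeks on the log2 scale had a 95% interval of -1.64 to 0.42 and did not pass the test (limma adjusted p = 0.390). Against the limit of 3 fragments per culture library, the mean heart level at week 1 was at least 84.2-fold higher, and the bound at week 2 was at least 49.0-fold. *Chil3* was thus already present in the heart at week 1, when *Retnla* was at 1 fragment.

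Reads of close relatives could be counted on either gene, so the paralogs were read beside them. *Chil4*, the nearest relative of *Chil3*, held 1 fragment in all 8 libraries together. *Retnlb* held 0 fragments, and *Retnlg* held 5, all in the first replicate of heart week 2. No other annotated gene overlapped *Chil3* or *Retnla*.

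The upstream sequences of *Retnla* and *Chil3*, the pair with no fragment in culture, are shown with that of *Mrc1*, an alternative activation gene whose level was higher in culture. They come from RefSeq (GRCm38.p6), where 8 of the 10 genes had an entry and *Arg1* and *Lyve1* were not matched. Each runs 5′ to 3′ on the gene's strand and stops before the first base of the gene in the deposited table. *Retnla* is chr16:48842359-48842550 (plus strand), *Chil3* is chr3:106167565-106167814 (minus strand) and *Mrc1* is chr2:14229164-14229391 (plus strand). Capitals mark matches, on either strand, to the STAT6-type motif TTCNNNNGAA, the general STAT motif TTCNNNGAA, the C/EBP-type motif TTGCNNAA and the PU.1-type motif GAGGAAG.
Retnla: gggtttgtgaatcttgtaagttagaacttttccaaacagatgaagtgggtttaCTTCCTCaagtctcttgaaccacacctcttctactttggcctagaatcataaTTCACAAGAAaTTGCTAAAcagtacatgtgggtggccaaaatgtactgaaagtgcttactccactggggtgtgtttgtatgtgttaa
Chil3: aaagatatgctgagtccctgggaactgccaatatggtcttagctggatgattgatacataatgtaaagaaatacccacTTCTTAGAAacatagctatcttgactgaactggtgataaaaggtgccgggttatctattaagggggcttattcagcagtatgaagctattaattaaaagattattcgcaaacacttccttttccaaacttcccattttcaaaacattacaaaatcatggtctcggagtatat
Mrc1: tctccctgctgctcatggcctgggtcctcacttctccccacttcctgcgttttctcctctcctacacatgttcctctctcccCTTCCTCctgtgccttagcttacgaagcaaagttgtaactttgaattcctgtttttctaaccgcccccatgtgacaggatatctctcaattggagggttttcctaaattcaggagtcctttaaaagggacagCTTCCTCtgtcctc
Positions count back from 1 at the last printed base, and the RefSeq start lies a further 58 bases on in *Retnla*, 22 in *Mrc1* and 0 in *Chil3*. In *Retnla*, the STAT6-type match lay at 87 to 78, the C/EBP-type match followed at 76 to 69 without overlap, and a PU.1-type match lay at 139 to 133. *Chil3* had a general STAT match at 172 to 164 and none of the other 3 motifs in its window, and *Mrc1* had PU.1-type matches at 146 to 140 and 14 to 8. Of all 32851 RefSeq windows of 300 bases, 6.95% held the STAT6-type motif, 8.30% the general STAT motif, 10.8% the C/EBP-type motif and 13.6% the PU.1-type motif. These matches describe the letters only.

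*Arg1* encodes arginase 1, the enzyme that splits arginine into ornithine and urea and so competes with nitric oxide synthase for arginine. Its position is chromosome 10 (24915221 to 24927484, minus strand). Its FPKM was 13.8 and 13.6 in heart week 1, 35.1 and 32.0 in heart week 2, 0.466 and 0.691 in culture week 1 and 0.584 and 0.363 in culture week 2. Every heart library stood above every culture library, and the heart week 2 libraries stood above those of week 1. The mean was 23.6-fold higher in the heart than in culture at week 1 and 70.8-fold at week 2. Within the heart the week 2 mean was 2.45-fold that of week 1, a log2 difference of 1.29 ± 0.22 (SE) that just missed the threshold used here, an adjusted p under 0.01 with a log2 difference over 1 (limma adjusted p = 0.0121). It passed with 4 of the alternatives, among them voom on the recovered fragments (adjusted p = 4.90e-06). In culture the log2 difference was -0.25 ± 0.22 (limma adjusted p = 0.450).

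None of the 7 tested genes on the other steps of arginine use passed the test for a change in the heart, with limma at the same threshold. The most abundant were *Oat* (ornithine aminotransferase), *Odc1* (ornithine decarboxylase), *Srm* (spermidine synthase) and *Ass1* (which rebuilds arginine from citrulline), with log2 differences between -0.20 and 0.22 in the heart. At an unadjusted p under 0.05, 1 of the 7 passed, and 0 did with voom at the threshold. A fit of the heart libraries alone had 4198 of all 15708 genes under that unadjusted p, and nothing is read from the count. *Nos2*, the inducible nitric oxide synthase that is used as a mark of classical activation, was at 1.76 and 1.79 FPKM in heart week 1, 0.763 and 1.15 in heart week 2 and at most 0.583 in culture. A list of 10 classical activation genes that includes *Nos2* went the other way at week 2. Its summed FPKM was then 226 to 347 in the heart and 1693 to 2282 in culture. At week 1 the sums were 381 to 561 in the heart and 492 to 538 in culture.

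*Mrc1* encodes the mannose receptor CD206, an endocytic receptor on most tissue macrophages whose expression IL-4 increases. With a mean FPKM of 56.7 over the 8 libraries it was the most abundant of the 10. The locus is on chromosome 2 (14229392 to 14332057, plus strand) and holds the microRNA gene *Mir511*, which was at 0. Its FPKM was 35.8 and 32.3 in heart week 1, 35.9 and 32.8 in heart week 2, 51.5 and 74.2 in culture week 1 and 93.6 and 97.1 in culture week 2. The heart weeks overlapped, and both culture groups lay above them without overlap. In the heart the log2 difference between the weeks was 0.01, with a 95% interval of -0.37 to 0.39 (limma adjusted p = 0.976). In culture it was 0.63 ± 0.16 (limma adjusted p = 0.0304), short of the threshold. *Mrc1* was thus 2.78-fold higher in culture than in the heart at week 2, the opposite direction to *Chil3*, *Retnla* and *Arg1*.

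*Cd163* encodes the scavenger receptor that takes up haemoglobin bound to haptoglobin, and glucocorticoids and IL-10 are known to increase it. It lies on chromosome 6 (124304656 to 124330527, plus strand). Its FPKM was 1.83 and 1.12 in heart week 1, 5.71 and 3.71 in heart week 2, 1.01 and 1.30 in culture week 1 and 1.55 and 1.62 in culture week 2. Only heart week 2 stood apart, and the libraries of heart week 1 overlapped those of both culture groups. The log2 difference in the heart was 1.61 ± 0.28, with a limma adjusted p of 0.0127, and passed with voom (adjusted p = 0.000845). In culture it was 0.43 ± 0.28 (limma adjusted p = 0.312). Among genes known to respond to glucocorticoids, the summed FPKM of a list of 7, led by *Dusp1*, was 610 to 854 in the heart and 236 to 248 in culture. The part of this in the level of *Cd163* was not tested.

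*Lyve1* encodes a hyaluronan receptor of lymphatic endothelium that also marks resident macrophages along vessels. The gene is on chromosome 7 (110850607 to 110863239, minus strand). Its FPKM was 2.66 and 2.58 in heart week 1, 13.2 and 19.0 in heart week 2, 3.20 and 3.42 in culture week 1 and 7.83 and 8.31 in culture week 2. No group overlapped another. It rose in the heart by 2.55 ± 0.16 on the log2 scale (SE, limma adjusted p = 0.000687) and in culture by 1.26 ± 0.16 (limma adjusted p = 0.00286). The difference between these rises, 1.29 ± 0.23, did not pass the test (limma adjusted p = 0.0190). Without replicate 1 of heart week 1, the adjusted p of the rise in the heart was 0.0126, and that of the rise in culture was 0.0226 and 0.0247 without either library of culture week 1 and 0.0212 and 0.0273 without either of culture week 2. The call of the rise in culture was also lost without either library of heart week 1.

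Because lymphatic endothelium also makes *Lyve1*, its other markers were read in the same libraries. *Ccl21a*, a chemokine of lymphatic vessels, was at 1.06 and 2.86 FPKM in heart week 1, 7.93 and 14.4 in heart week 2 and 0 in culture, and *Mmrn1* was at 1.03 and 1.33, then 2.94 and 5.15 in the heart and at most 0.276 in culture. None of the 5 markers in that list passed the test in the heart (limma adjusted p = 0.0175 for *Ccl21a* and 0.0176 for *Mmrn1*). At an unadjusted p under 0.05, 4 of the 5 passed, and 2 did with voom at the threshold. A fit of the heart libraries alone had 4198 of all 15708 genes under that unadjusted p, and nothing is read from the count. The summed FPKM of the 5 markers, mostly *Pdpn*, was 73.0 to 76.0 in heart week 1 and 71.4 to 80.6 in heart week 2. *Prox1*, the lymphatic transcription factor, was between 0.305 and 0.755 FPKM in all 8 libraries, with a log2 difference of 0.92 in the heart (95% interval 0.25 to 1.58, limma adjusted p = 0.0727). The part of lymphatic cells in the rise of *Lyve1* in the heart was not tested.

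*Timd4* encodes TIM-4, a receptor for phosphatidylserine with which resident macrophages take up dying cells, and it is the usual mark of the self-renewing resident macrophages of the heart. Its position is chromosome 11 (46810800 to 46844332, plus strand). It had 33 fragments in each heart week 2 library (FPKM 1.35 and 1.38) and 0 or 1 in each of the other 6. The low level in heart week 2 did not overlap the others. The fitted difference in the heart was 3.65 ± 0.58 on the log2 scale (SE), a description with no test, because *Timd4*, like *Retnla*, entered the fit only through these 2 libraries. The fragments gave a week 2 to week 1 ratio of 73.1, with an exact 95% interval of 12.7 to 2931 that covers counting error only. Because of the same filter, this ratio and its interval are a description with no test too. A list for the uptake of dying cells includes the bridging protein *Gas6* and the receptors *Axl* and *Mertk*. Of its 9 tested genes, 0 passed in the heart with limma, 5 at an unadjusted p under 0.05 and 1 with voom at the threshold. A fit of the heart libraries alone had 4198 of all 15708 genes under that unadjusted p, and nothing is read from the count.

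*Folr2* encodes folate receptor β of resident macrophages. The locus is on chromosome 7 (101839988 to 101857194, minus strand) and overlaps an antisense gene, *Gm10602*, that reached at most 0.587 FPKM. Its FPKM was 6.02 and 3.67 in heart week 1, 4.53 and 4.51 in heart week 2, 9.37 and 7.97 in culture week 1 and 13.8 and 14.98 in culture week 2. The heart weeks overlapped and both lay below culture. The log2 difference between weeks was -0.06 in the heart (95% interval -0.56 to 0.44, limma adjusted p = 0.890) and 0.73 ± 0.21 in culture (limma adjusted p = 0.0452), neither past the threshold. Its relative *Folr1* held 49 to 61 fragments in the heart libraries and 214 to 296 in culture.

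*F13a1* encodes the A subunit of coagulation factor XIII, which cross-links fibrin and is made by monocytes and resident macrophages. It lies on chromosome 13 (36867178 to 37050244, minus strand). Its FPKM was 11.4 and 10.3 in heart week 1, 14.1 and 13.7 in heart week 2, 5.56 and 9.03 in culture week 1 and 43.9 and 42.1 in culture week 2. Culture week 2 stood far above the other groups, and culture week 1 was the lowest. In culture it rose by 2.58 ± 0.20 on the log2 scale (SE, limma adjusted p = 0.000508), a 5.89-fold higher mean, and in the heart the difference was 0.35 ± 0.20 (limma adjusted p = 0.286). The change in the heart was 2.24 lower than that in culture, with a difference of -2.24 ± 0.28 (SE, limma adjusted p = 0.00663) that was lost in 7 of the 8 fits without a library, all but that without replicate 2 of culture week 1, with adjusted p up to 0.0443.

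*Cbr2* encodes carbonyl reductase 2, an enzyme that marks resident macrophages in several mouse tissues. The gene is on chromosome 11 (120729489 to 120732114, minus strand). Its FPKM was 13.6 and 11.5 in heart week 1, 20.1 and 19.7 in heart week 2, 14.2 and 16.7 in culture week 1 and 42.9 and 46.0 in culture week 2. No group overlapped another. It rose in culture by 1.52 ± 0.11 on the log2 scale (SE, limma adjusted p = 0.000399). In the heart the difference was 0.66 ± 0.11 (limma adjusted p = 0.0107), under the size the threshold asks for.

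Set side by side, *Lyve1* rose from week 1 to week 2 in the heart and 7 of the 10 genes did not pass, where 2.18% of all tested genes passed in either direction, 1.23% upwards and 0.949% downwards. *Retnla* and *Timd4* were also past the threshold, but they entered the fit only through their heart week 2 libraries, so nothing is read from their calls. *Timd4* kept its call in the heart in 5 of 18 alternatives and *Retnla* in 14. In culture 3 of the 10 (*Lyve1*, *F13a1* and *Cbr2*) rose and the other 7 did not pass, against 3.81% of tested genes in either direction, 2.76% upwards and 1.05% downwards. The test of whether the change over time differed between heart and culture passed for *F13a1*, against 1.73% of all tested genes (0.573% with the higher change in the heart and 1.15% with the higher change in culture). For *Retnla* it repeats the change in the heart, since culture was at 0 throughout, and is not read. The counts of genes that passed moved strongly with single libraries: without replicate 1 of heart week 1, 11 of all genes passed in the heart in place of 342.

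**Figure D2:**
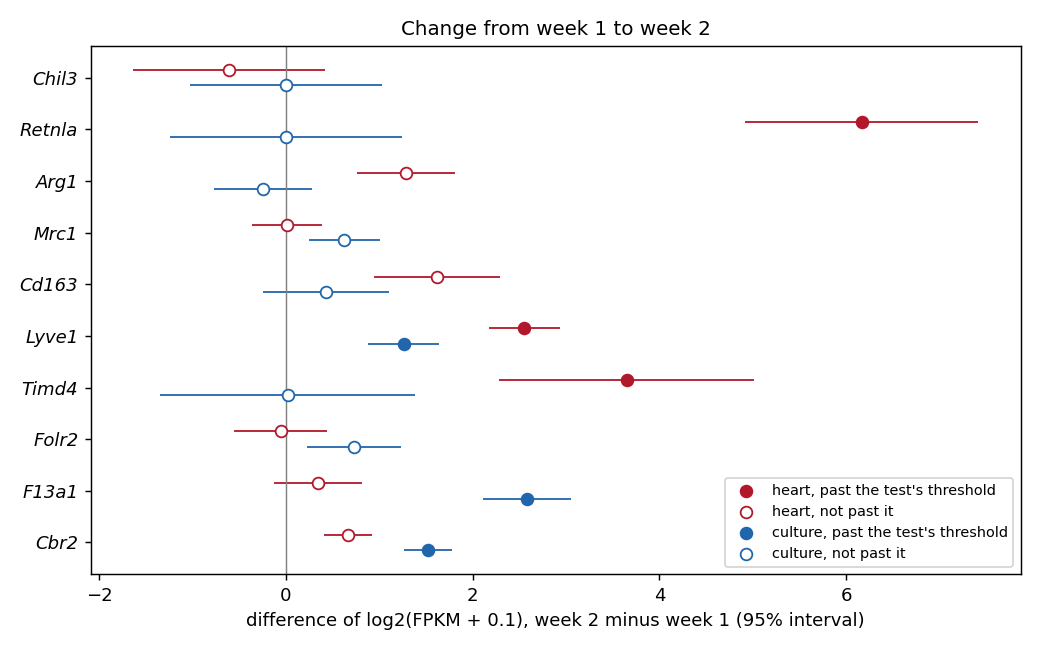
Difference of log2(FPKM + 0.1) between week 2 and week 1 (horizontal axis) for each of the 10 genes in the heart (red) and in culture (blue). Lines are 95% intervals of the limma fit and filled points passed an adjusted p under 0.01 with a difference over 1. *Retnla*, *Timd4* and *Lyve1* are filled in the heart, the first 2 of them admitted to the fit only by their heart week 2 libraries, and *F13a1*, *Cbr2* and *Lyve1* in culture.

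Between heart and culture, which is the contrast by which the genes were known, 2 of the 10 (*Chil3* and *Arg1*) were past the same threshold at week 1, both higher in the heart, and 9 were past it at week 2, 5 of them higher in the heart and 4 lower. The shares over all tested genes were 12.9% at week 1 (7.79% higher and 5.07% lower in the heart) and 17.1% at week 2 (9.02% and 8.05%), and nothing is read from the members' counts. The direction differed between genes: *Retnla*, *Chil3*, *Arg1*, *Timd4* and *Cd163* were higher in the heart at week 2, and *Mrc1*, *Folr2*, *F13a1* and *Cbr2* were higher in culture. *Lyve1* was also higher in the heart at week 2 without overlap, by 0.97 on the log2 scale, under the size the threshold asks for. Both alternative activation genes and resident macrophage genes thus stood on each side. Without the scaling between libraries, the median of all genes moved by -0.34 at week 1 and -0.32 at week 2 towards culture, and the split of all genes past the threshold went from 1224 higher and 796 lower to 906 and 1558 at week 1 and from 1417 and 1265 to 1032 and 2087 at week 2.

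Read against the general macrophage markers of the same library, the differences in the heart shifted upwards. The mean log2(FPKM + 0.1) of the 20 markers was 6.02 ± 0.16 in heart week 1 and 5.39 ± 0.20 in heart week 2 (SD, n = 2), a difference of -0.62, and 6.06 ± 0.17 and 6.18 ± 0.16 in culture. 1 of the 20 passed the test in the heart, *Ms4a7*, a membrane protein of macrophages, which fell by 1.25 on the log2 scale (limma adjusted p = 0.00122), and 3 of the 20 passed with voom. Relative to that mean, the log2 difference in the heart was 1.91 for *Arg1*, 2.24 for *Cd163*, 3.18 for *Lyve1* and 1.29 for *Cbr2*. It was 0.97 for *F13a1*, 0.64 for *Mrc1*, 0.57 for *Folr2* and 0.01 for *Chil3*. *Retnla* and *Timd4*, each with 1 fragment in heart week 1, are left out. In culture the relative differences were 2.46 for *F13a1*, 1.40 for *Cbr2*, 1.14 for *Lyve1* and 0.61 for *Folr2*. They were 0.51 for *Mrc1*, 0.31 for *Cd163* and -0.37 for *Arg1*. These are descriptions with no test.

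Other genes of alternative activation and of resident macrophages were read in the same way. Of 10 tested in a list of 12 further alternative activation targets, 2 were past the threshold upwards in the heart and 8 did not pass, against 1.23% of all genes. They were *Mgl2*, a galactose-binding lectin, at 0.938 and 1.21, then 8.46 and 10.8 FPKM (a rise of 3.05 ± 0.22, SE, limma adjusted p = 0.000826), and *Alox15*, the lipoxygenase of alternatively activated macrophages, at 0.104 and 0.0938, then 5.60 and 2.84 (a difference of 4.36 ± 0.50, SE). *Alox15* entered the fit only through its heart week 2 libraries, so nothing is read from its call. In culture 3 rose, against 2.76% of all genes, *Mgl2* by 3.79, *Clec10a*, the lectin encoded beside it, by 3.10 and the eosinophil chemokine *Ccl24* by 2.85. The genes that passed in this list and the next are named because they passed. The 4 most abundant of the list were *Tgm2* (transglutaminase 2), *Clec7a* (dectin-1), *Clec10a* and *Il1rn* (the IL-1 receptor antagonist), which did not pass in the heart.

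Of 12 tested in a list of 14 further resident macrophage genes, 2 rose in the heart and 10 did not pass, against 1.23% of all genes. *Fcna* (ficolin A) was at 2.36 and 0.894, then 17.9 and 20.4 FPKM, and *Cd5l* (a secreted scavenger protein) at 3.99 and 2.38, then 14.5 and 10.4, with rises of 3.62 ± 0.38 and 1.96 ± 0.28 (SE, limma adjusted p = 0.00234 and 0.00640). *Vsig4*, a complement receptor of resident macrophages singled out after its values were seen, was at 0.173 and 0.466, then 3.64 and 5.31. It entered the fit only through its heart week 2 libraries, so these values are a description with no test. In culture 1 of the 12 rose, the transporter *Slco2b1*, by 2.88, against 2.76% of all genes. *Gas6*, *Pf4* and *Stab1*, which are among the most abundant of the list, did not pass in the heart. Their log2 differences there were 0.57, -0.53 and -0.47. In the heart, 6 of the 12 differences were above 0, and they ran from -1.11 for *Siglec1* to 3.62 for *Fcna*.

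**Figure D3:**
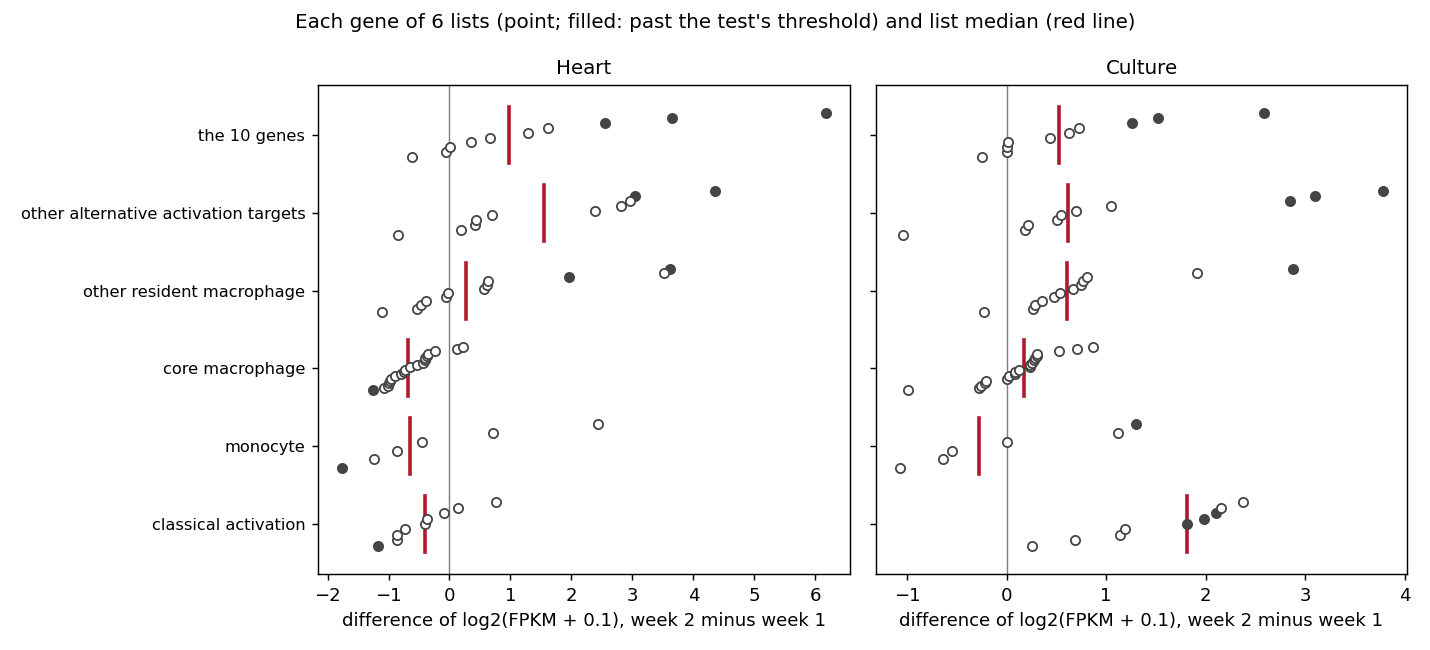
Difference of log2(FPKM + 0.1) between week 2 and week 1 (horizontal axis) for every tested gene of 6 lists, in the heart (left) and in culture (right). Points are genes, filled where they were past the threshold of the test, and red lines are list medians. The list medians in the heart are 1.55 for the further alternative activation targets and -0.68 for the general macrophage markers. In culture they are 0.62 and 0.18, and 1.82 for the classical activation list. Medians of all tested genes are -0.003 in the heart and 0.02 in culture. *Retnla* and *Timd4* of the 10 genes and *Alox15* of the alternative activation list entered the fit only through their heart week 2 libraries. Nothing is read from their filled points. The medians of the 10 genes and of the alternative activation list are descriptions with no test.

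Genes of blood monocytes and of classical activation were read next, where 0.949% of all genes fell in the heart and 2.76% rose in culture. In the heart, *Plac8* of the monocyte list fell by 1.76 on the log2 scale (limma adjusted p = 0.00442), from 30.3 and 21.8 to 9.29 and 6.09 FPKM, and was the only one of 6 tested to pass there. In culture *Nr4a1*, a nuclear receptor needed by patrolling monocytes, rose by 1.31 (limma adjusted p = 0.000894), and the other 5 did not pass. Among the 6 differences in the heart, 2 were above 0, *Ifitm6* at 2.43 and *Nr4a1* at 0.72 on the log2 scale, and neither passed. The summed FPKM of the 7 genes in the monocyte list was 185 to 234 in heart week 1 and 278 to 330 in heart week 2. *Ccr2*, the receptor that defines recruited monocytes, was at 6.23 and 3.33 FPKM in heart week 1, 2.24 and 2.73 in heart week 2 and at most 0.0792 in culture. Of 9 tested genes of classical activation, *Ptgs2* (cyclooxygenase 2) fell in the heart by 1.17 (limma adjusted p = 0.00954) and the other 8 did not pass. In culture *Ccl3*, *Ccl4* and *Cd86* rose, by 1.99, 2.11 and 1.82, and the other 6 did not pass.

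The ligands, receptors and transducers of the type 2 response were measured in the same libraries, as the plot of the signalling genes shows. No gene of the 6 ligands, 5 receptor chains and 12 transducers tested passed the test for a change in the heart with limma or with voom. At an unadjusted p under 0.05, 1, 4 and 7 of them passed. A fit of the heart libraries alone had 4198 of all 15708 genes under that unadjusted p, and nothing is read from these counts. *Il4* was at 1.11 to 2.35 FPKM in all 8 libraries and *Il13* at 0 to 0.120. *Il33*, an alarm signal of stromal cells, was at 42.3 to 46.0 FPKM in the heart and 7.35 to 12.8 in culture, and *Il10* at 7.81 to 17.4 in the heart and 25.7 to 44.8 in culture. Of the receptor chains, *Il13ra1* was at 27.1 to 36.7 in the heart and 8.01 to 11.1 in culture, and *Il4ra* was at 29.1 and 33.8 in heart week 1, 24.7 and 20.4 in heart week 2, 12.0 and 13.7 in culture week 1 and 20.3 and 21.7 in culture week 2. *Il4ra* and *Il13ra1* were higher in every heart library than in every culture library at week 1, and at week 2 *Il4ra* overlapped. *Stat6* kept within 29.1 to 36.1 FPKM in all 8. *Jak3*, the kinase that pairs with the common γ chain, was at 5.60 to 7.31 in the heart and 1.22 to 1.59 in culture. *Pparg* rose in culture by 1.01 ± 0.12 (SE, limma adjusted p = 0.00205), from 3.85 and 4.17 to 8.52 and 7.87 FPKM, and was at 2.55 and 2.26, then 1.35 and 1.53 in the heart. The change over time differed between heart and culture for both *Il4ra* (-1.19 ± 0.17, SE, limma adjusted p = 0.00972) and *Pparg* (-1.71 ± 0.17, limma adjusted p = 0.00366), which were singled out after their values were seen. Both calls were lost in each of the 8 fits without a library, with adjusted p from 0.0155 to 0.0466 for *Il4ra* and 0.0102 to 0.0274 for *Pparg*, and the rise of *Pparg* in culture was lost without any 1 of the 4 culture libraries, with adjusted p from 0.0163 to 0.0216. Cultures also contained a JAK inhibitor and hosts the immunosuppressants, so that place and drug cannot be told apart.

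**Figure D4:**
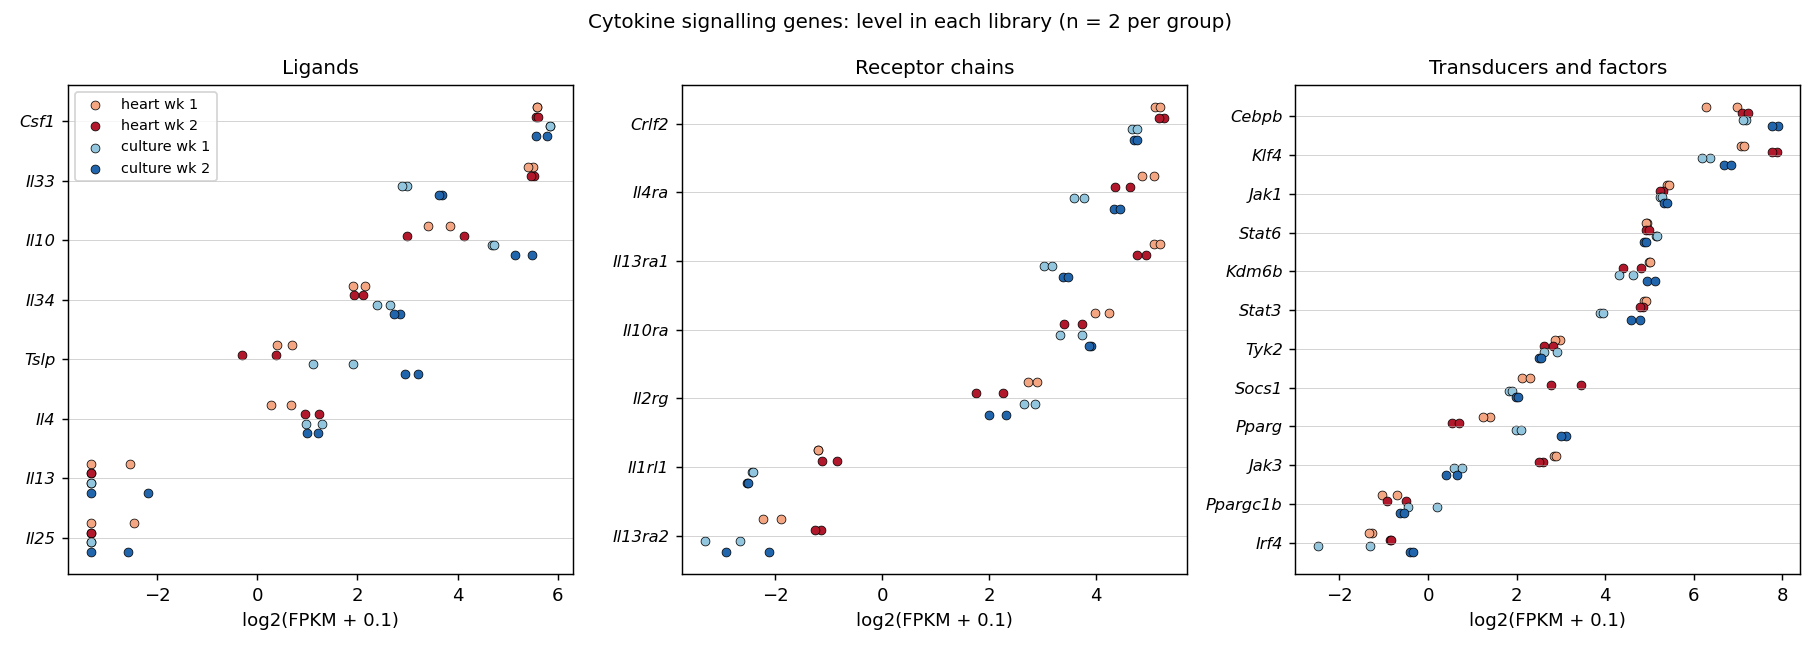
Level as log2(FPKM + 0.1) (horizontal axis) of the genes for ligands, receptor chains, and transducers and transcription factors of the type 2 response in each of the 8 libraries, coloured by group, 2 points per group. *Il33*, *Il13ra1* and *Jak3* separate heart from culture in both weeks, *Stat6* and *Il4* stay within narrow ranges (29.1 to 36.1 and 1.11 to 2.35 FPKM), and *Il13* and *Il25* lie at or near 0.

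Markers of other cells that can make some of the 10 genes were read as well. In heart week 2, the summed FPKM was at most 10.1 for 7 neutrophil markers, 4.63 for 6 dendritic cell markers, 1.64 for 5 T cell markers, 1.15 for 4 B cell markers and 0.577 for 4 eosinophil markers, with *Ly6g* at 0 in all 8 libraries. The mast cell list, 5 genes led by *Mcpt4*, summed to 1.91 to 7.64 in the heart and 62.6 to 148 in culture. Of the 5, 3 were at 0 in both culture week 1 libraries and 2 in both of culture week 2. Only 2 reached an FPKM of 1 or more in all libraries of either culture group. Endothelial markers (6 genes) summed to 58.4 to 73.4 in the heart, 9.31 to 10.9 in culture week 1 and 31.4 to 38.4 in culture week 2. Their part in the levels of the 10 genes was not tested.

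The genes whose pattern over the 8 libraries was most like that of *Chil3* were *Tgtp2*, the pseudogene *Gm8696* and *Iigp1*, with Pearson r between log2(FPKM + 0.1) values of 0.999, 0.999 and 0.998. *Iigp1*, for example, was at 18.4 and 11.5 FPKM in heart week 1, 12.9 and 9.78 in heart week 2 and at most 0.833 in culture, where *Chil3* was at 0. The nearest to *Retnla* were the non-coding *Gm45881*, the pseudogene *AC132099.1* and the immunoglobulin segment *Ighv1-55*, each with r of 0.988 or 0.989 and each listed at 0 in the other 6 libraries. The nearest to *Mrc1* were *Stard8*, the non-coding *AC124681.2* and *Vps18*, with r of 0.990, 0.990 and 0.989. With 8 libraries that share their place and week, these values are a description only.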

How the data were processed

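The deposited table gives FPKM values for 54532 genes in 8 bulk RNA libraries (4 groups of 2), which the authors' service provider made from reads aligned with HISAT2 2.0.5 to mm10, per the labels; the counting tool and its use of strand are not given in the sources used here. The authors' FPKM values were whole multiples of 1 fragment per gene in 100% of values under 1000 fragments (within 0.02 fragments), so that fragments per library were recovered, and the size behind the FPKM was 0.863 to 0.915 times the fragments on genes in the heart and 1.09 to 1.15 times in culture. In the table, 0 columns belonged to other samples. Genes with an FPKM of 0.5 or more in at least 2 libraries (15708) were fitted as log2(FPKM + 0.1) with limma 3.58.1 in R 4.3.3, with 1 mean per group, a variance trend and Benjamini-Hochberg adjustment over all genes tested. A gene passed at an adjusted p under 0.01 with an absolute log2 difference over 1. All 8 libraries shared 1 estimate of the spread. Intervals for few fragments are exact 95% binomial intervals for counting error only, and 0 fragments were read as up to 3. Upstream sequences came from RefSeq. The script was tested on simulated data. The labels do not say whether libraries with the same replicate number belong together. Correlations of their deviations over genes were between -0.02 and -0.01, which cannot decide this with 1 replicate difference per group. All 10 genes were named, with up to 4 examples per list by mean FPKM, 4 paralogs, and 3 genes each most like *Chil3*, *Retnla* and the most abundant of the 10. The 10 genes and the 22 other lists were chosen with earlier results of these data known. The alternatives were the added constant, the filter, quantile or no scaling, no trend, a replicate block, only the groups compared, voom, leaving out each library, and the adjusted p.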

Additional observations from a re-analysis of the deposited data

Results flagged for a closer look

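The change from week 1 to week 2 differed between heart and culture, by a test of the difference itself, for *F13a1*, with a difference of -2.24 on the log2(FPKM + 0.1) scale (limma adjusted p = 0.00663) and the higher change in culture. This call was lost in 7 of the 8 fits without a library. Of the signalling genes, *Il4ra* and *Pparg* also differed, by -1.19 and -1.71 (limma adjusted p = 0.00972 and 0.00366), and both calls were lost in all 8 such fits. Groups of 2 libraries were not examined for single libraries that stand apart.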

How the results depend on the processing

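The week 2 to week 1 count of genes past the threshold was 342 in the heart, 599 in culture and 271 for the difference between them. With only the groups compared it was 0 in the heart and 0 in culture with limma, where 4198 and 5992 genes had an unadjusted p under 0.05 while voom over all 8 libraries called 505 and 863. At an adjusted p under 0.05 it was 727, 1003 and 677. The difference between the time courses also gave 72 genes with no filter, 71 with no variance trend, 27 with the replicate block and 473 with voom. Leaving out 1 library gave 11 to 221 genes in the heart, 198 to 555 in culture and 2 to 86 for the difference, and 1448 to 2044 and 2011 to 2548 for heart against culture. A lone library was then assumed to vary like the other groups. The replicate block gave 236 genes in the heart, 448 in culture, 1851 and 2512 for heart against culture, and ended the calls of *F13a1*, *Il4ra* and *Pparg* for the difference (adjusted p = 0.0167, 0.0230 and 0.0116). No direction of one of the 10 genes past the threshold reversed. In the heart, *Lyve1* kept its call in 16 of 18 alternatives, and in culture *F13a1* and *Cbr2* kept it in 17 and *Lyve1* in 10. For the difference, *F13a1* kept its call in 7 of 17, *Il4ra* in 5 and *Pparg* in 6. The cause was not tested. At 2 libraries a group, genes of few fragments such as *Timd4* and *Retnla* are measured with wide intervals.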
